A study of Saccharomyces cerevisiae with 4 samples.

Results

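The genes described are 9 genes of phospholipid synthesis in the budding yeast Saccharomyces cerevisiae and of the transcriptional circuit that controls it. They are INO1 and ITR1 of the inositol branch, CHO1, PSD1, CHO2 and OPI3 of the route from serine to choline lipids, and the regulators INO2, INO4 and OPI1. They were chosen by name, and each was found through its locus tag on 1 probe of the array, so that 9 of the 6256 yeast probes are members. All 9 were among the 6144 genes tested.

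RNA was taken from a strain labelled BY4741, a common haploid laboratory strain of mating type a, in which the MSN2 allele called Msn2A6 is induced by 17β-estradiol. The zinc finger protein Msn2 activates stress genes and is restrained by protein kinase A, which the A6 form escapes. The protocols disagree on the optical density at which estradiol was added. The Msn2A6_90min group held 2 samples from 50 ml cultures in rich glucose medium (YPD) at 30 °C, harvested 90 min after 6 nM estradiol was added, and the Msn2A6_0min group held 2 samples without estradiol. Both groups carried the inducible allele, and no untreated culture at 90 min or strain without Msn2A6 was among the samples used here, so estradiol, Msn2A6 and further growth cannot be told apart.

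Each sample was hybridised in 1 colour to 1 Agilent array, on which no spot was saturated and 6151 to 6191 of the yeast probes exceeded background clearly, by the scanner software. Over probes, the 90 min arrays had a correlation of 0.9985 with each other and the 0 min arrays one of 0.9990. MSN2 itself gave 331 and 262 units at 90 min, against 61.9 and 59.3 units at 0 min, a rise of 2.47 ± 0.09 on the log2 scale (SE, adjusted p = 1.34e-06). The sequence of the probe was not examined, so the induced allele and any chromosomal copy cannot be told apart. Of 6144 genes, 1860 rose and 2840 fell (limma, adjusted p under 0.05). Rises made up 39.6% of these calls, a share that dropped to 26.7% without scaling between arrays and to 15.4% when arrays were scaled on their spike-in controls.

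Yeast makes its main membrane lipids from CDP-diacylglycerol, which is turned into phosphatidylserine by Cho1 and into phosphatidylinositol in the inositol branch. Phosphatidylserine is decarboxylated to phosphatidylethanolamine, which is then methylated to phosphatidylcholine. Ino2 and Ino4, basic helix-loop-helix proteins, bind together to an inositol-sensitive promoter element and activate most of these genes. Opi1 represses them when it enters the nucleus, and it is held at the endoplasmic reticulum by phosphatidic acid, so that the genes are low when inositol is plentiful.

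After 90 min of estradiol, 8 of the 9 genes were lower and 1 was higher. INO1 fell most, to 3.37-fold less than at 0 min, and all 4 genes of the serine to choline route fell, by 1.67-fold to 2.46-fold. The activator gene INO2 fell 1.76-fold, whereas its partner INO4 rose 1.59-fold. OPI1 differed least, with a log2 change of -0.23. The median log2 change of the 9 genes was -0.81, against -0.13 over all genes tested.

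These calls come from limma, with p-values adjusted over all probes tested and a threshold of 0.05. The background is high, since 46.2% of all genes were called lower and 30.3% higher, 76.5% in all. In all 9 genes the 90 min arrays lay wholly on one side of the 0 min arrays, which was also so for 88.4% of all genes. At least 2-fold falls were rarer, at 3.87% of all genes, and 3 of the 9 genes, INO1, CHO2 and CHO1, were among them. No member rose 2-fold, against 8.92% of all genes.

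**Figure D1:**
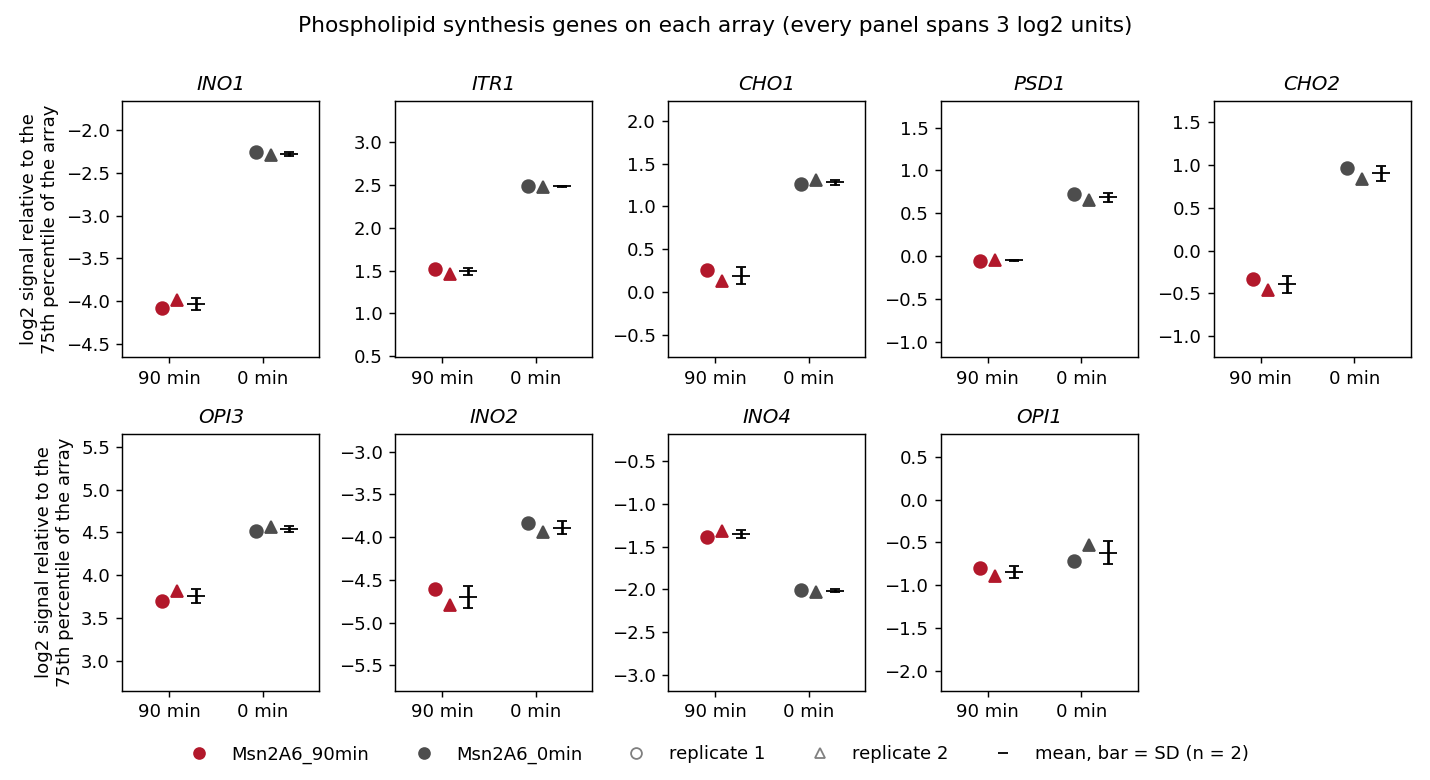
Log2 signal of each gene relative to the 75th percentile of its array, with 1 panel per gene and 1 symbol per array, 90 min on the left in red and 0 min on the right in grey. Horizontal marks give the mean and bars the SD (n = 2). The groups are separate in all 9 panels, with INO4 higher at 90 min and OPI1 showing the narrowest separation.

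INO1 (YJL153C) encodes inositol-3-phosphate synthase, the enzyme that makes inositol from glucose 6-phosphate and the classic readout of this circuit. Its probe gave 517 and 512 units on the 90 min arrays, against 1988 and 1974 units on the 0 min arrays. Both 90 min arrays were far below both 0 min arrays, and after scaling to the 75th percentile of each array the replicates differed by 0.09 log2 at 90 min and 0.04 at 0 min. Units are processed fluorescence before any scaling between arrays, and levels of different probes cannot be compared. On the log2 scale relative to the 75th percentile of the array, INO1 stood at -4.03 ± 0.07 at 90 min and at -2.28 ± 0.03 at 0 min (SD, n = 2 each). It fell by 1.75 ± 0.06 on the log2 scale (SE, 95% interval -1.90 to -1.61, adjusted p = 1.31e-06), the 20th largest fall of the 6144 genes. The fall was 1.59 with normexp background correction and 2.21 with spike-in scaling. A lower signal in these bulk samples can reflect fewer cells that carry the transcript or less transcript per cell, which cannot be told apart.

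ITR1 (YDR497C) encodes the main inositol permease of the plasma membrane. Its signal was 25016 and 22299.8 units at 90 min, against 53636 and 54045 units at 0 min. The 4 arrays formed well-separated pairs, and after scaling the replicates differed by 0.05 log2 at 90 min and 0.01 at 0 min. ITR1 fell by 0.99 ± 0.06 on the log2 scale, or 1.99-fold (95% interval -1.13 to -0.86, adjusted p = 1.00e-05). ITR2, the gene of the second inositol permease, named after its values were seen, did not pass, with a log2 change of -0.12 ± 0.05 (adjusted p = 0.088). ITR2 did pass with no scaling between arrays (-0.31), with spike-in scaling (-0.57) and in the deposited value table (-0.14). Its change was close to the median of all genes in these settings, which was -0.32, -0.58 and -0.14 in the same order.

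CHO1 (YER026C) encodes phosphatidylserine synthase, which opens the route to phosphatidylethanolamine and phosphatidylcholine. CHO1 gave 10469.5 and 8813 units at 90 min, against 22908 and 23953 units at 0 min. After scaling, the 90 min arrays were 0.14 log2 apart and about a log2 unit below the 0 min arrays. CHO1 fell 2.13-fold, a log2 change of -1.09 ± 0.07 (SE, adjusted p = 1.45e-05).

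PSD1 (YNL169C), the mitochondrial phosphatidylserine decarboxylase gene, showed 8389 and 7838 units at 90 min, against 15713 and 15212 units at 0 min. After scaling, its 90 min arrays agreed within 0.01 log2, the closest of any member at that time. PSD1 fell 1.67-fold, a log2 change of -0.74 ± 0.06 (SE, adjusted p = 4.43e-05).

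The methylation steps are carried out by Cho2, which adds the first methyl group to phosphatidylethanolamine, and by Opi3, which adds the remaining ones. CHO2 (YGR157W) read 6954 and 5865 units at 90 min, against 18624 and 17371 units at 0 min. That gave the largest fall of the serine to choline route, 1.30 ± 0.07 on the log2 scale (2.46-fold, 95% interval -1.48 to -1.12, adjusted p = 1.08e-05). OPI3 (YJR073C) read 113821 and 114210 units at 90 min, against 217786 and 229667 units at 0 min, with no spot saturated. OPI3 fell by 0.78 ± 0.06 on the log2 scale (1.71-fold, 95% interval -0.93 to -0.62, adjusted p = 5.79e-05). The 95% intervals of the CHO2 and OPI3 changes did not overlap, but they come from the same 4 arrays and do not test the difference. Within arrays, the ratio of OPI3 to CHO2 was 0.52 log2 higher at 90 min, with single pairs of arrays giving 0.31 to 0.74. The exact two-sided permutation test of that ratio gave p = 0.333, the smallest it can give here.

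**Figure D2:**
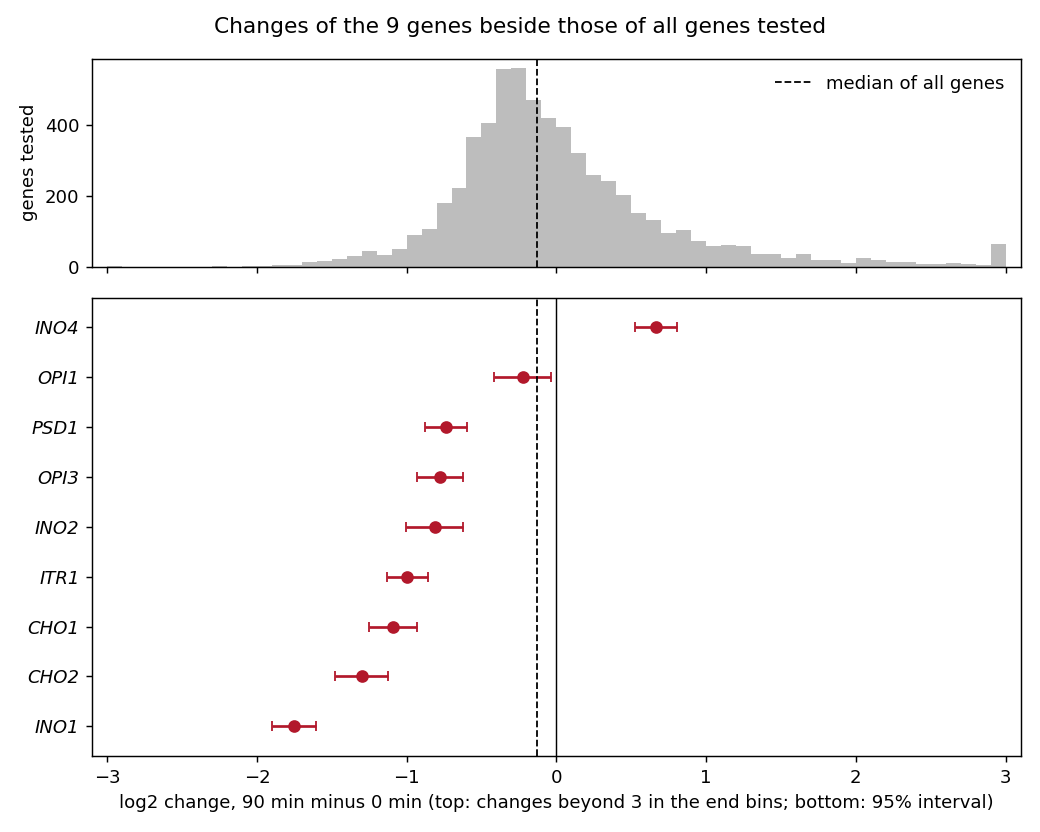
Log2 change, 90 min minus 0 min. The upper panel counts all 6144 genes by their change, and the lower panel gives each of the 9 genes with its 95% interval, the dashed line marking the median of all genes at -0.13. INO4 lies right of 0, and the interval of OPI1 includes the dashed line.

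INO2 (YDR123C) encodes the partner that carries the activation domain of the Ino2 and Ino4 pair. Its probe was dim, at 358 and 292 units at 90 min, against 667 and 632 units at 0 min. Both 90 min arrays were below both 0 min arrays, although after scaling they were 0.18 log2 apart from each other, the widest gap of any member at 90 min. INO2 fell 1.76-fold, a log2 change of -0.81 ± 0.08 (SE, adjusted p = 0.000125). In the deposited value table the fall was 0.90, and after normexp correction of the background it was 0.67, and it passed the threshold in all 15 settings run.

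INO4 (YOL108C) encodes the second partner, known for being expressed at a steady level whatever the inositol supply. Its probe gave 3343 and 3249 units at 90 min, against 2375 and 2378 units at 0 min. INO4 was thus higher on both 90 min arrays, in the opposite direction to INO2. It rose by 0.67 ± 0.06 on the log2 scale (1.59-fold, 95% interval 0.53 to 0.80, adjusted p = 7.23e-05). With spike-in scaling the change was 0.21 and did not pass (adjusted p = 0.21).

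OPI1 (YHL020C), the repressor gene, gave 5023 and 4348 units at 90 min, against 5809 and 6729 units at 0 min. The groups did not overlap, but after scaling only 0.08 log2 separated the nearest arrays, less than the 0.19 between the 0 min replicates. Its log2 change was -0.23 ± 0.08 (SE, 95% interval -0.42 to -0.03, adjusted p = 0.0375). The call was lost without replicate 2 at 90 min (adjusted p = 0.15), without replicate 2 at 0 min (0.21) and with scaling on the median (0.068). Left-out arrays moved the change between -0.32 and -0.13.

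Ratios within an array set genes of this circuit against each other without any scaling between arrays. The ratio of INO2 to INO4 changed by -1.48 on the log2 scale, with single pairs of arrays giving -1.65 to -1.31. The ratio of INO2 to OPI1 changed by -0.59 (-0.78 to -0.40), and that of INO1 to INO2 by -0.94 (-1.11 to -0.77). In each of 6 such ratios computed the groups did not overlap. Among single genes this was so for 88.4% of all genes tested, and no share over other pairs of genes was computed. The exact two-sided permutation test gave p = 0.333 for each ratio, before and after adjustment. That is the smallest that 2 arrays against 2 allow, so the test cannot set these ratios apart from others.

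The rest of phospholipid metabolism was read from lists of 53 other genes. Of these, 17 rose, 22 fell and 14 did not pass, with a median of -0.07. Over all genes tested, 30.3% rose and 46.2% fell, the shares beside which the counts of each list are to be read. No test was run over a list. In the other genes of phosphatidylethanolamine and phosphatidylcholine synthesis, 6 of 8 fell and 1 rose, with a median of -0.55. Most of these serve the Kennedy pathway, which builds the same lipids from ethanolamine and choline. ECT1, the gene whose product activates phosphoethanolamine with CTP, fell by 1.05 ± 0.07 on the log2 scale, to -1.74 ± 0.12 at 90 min against -0.68 ± 0.02 at 0 min (SD, n = 2 each). EPT1 and CPT1, which encode the ethanolamine and choline phosphotransferases, fell by 0.88 ± 0.06 and 0.76 ± 0.06. PSD2, the gene of the phosphatidylserine decarboxylase outside mitochondria, had the opposite sign to PSD1, at 0.22 ± 0.05 (adjusted p = 0.00878). That rise was 0.026 with no scaling between arrays and -0.23 with spike-in scaling, and passed in neither.

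In inositol and choline supply, 2 of 5 other genes fell, 1 rose and 2 did not pass. HNM1, which encodes the choline permease, fell by 0.90 ± 0.06 in log2 (1.86-fold). The inositol monophosphatase genes, which free inositol from the product of Ino1, parted from each other. INM1 fell by 0.62 ± 0.06, whereas INM2 rose by 0.64 ± 0.06, a rise that was 0.18 with spike-in scaling and did not pass there (adjusted p = 0.29).

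**Figure D3:**
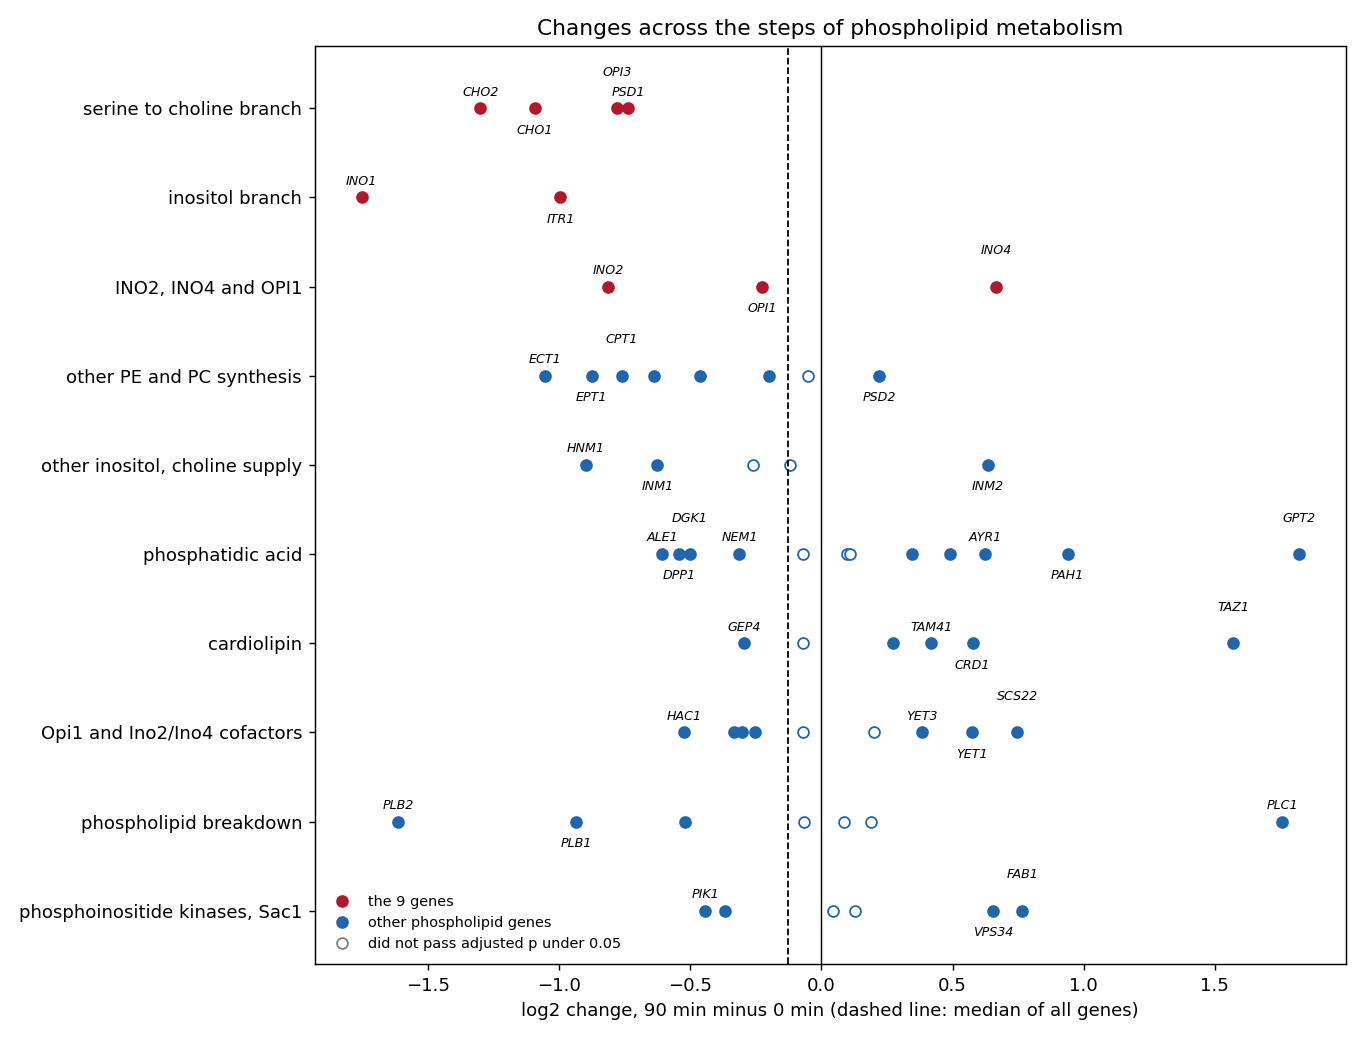
Log2 change, 90 min minus 0 min, of the 9 genes in red and of 53 other phospholipid genes in blue, in rows by step, with open symbols for genes that did not pass adjusted p under 0.05. The 4 genes of the serine to choline route lie between -1.30 and -0.74, whereas the genes of phosphatidic acid and cardiolipin spread to both sides of 0, up to 1.82 for GPT2.

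Genes of phosphatidic acid supply and removal went both ways, with 5 of 12 higher and 4 lower and a median of 0.10. GPT2, a glycerol-3-phosphate acyltransferase gene of the first step of lipid assembly, rose 3.53-fold, the largest rise in these lists (1.82 ± 0.07 in log2, adjusted p = 1.74e-06). PAH1, whose product removes phosphatidic acid by dephosphorylating it to diacylglycerol, rose by 0.94 ± 0.06. DGK1, which encodes the diacylglycerol kinase that runs the opposite reaction, fell by 0.50 ± 0.06. NEM1, of the phosphatase that activates Pah1, fell by 0.31 ± 0.06, ALE1, a lysophospholipid acyltransferase gene, by 0.61 ± 0.10, and DPP1, a vacuolar lipid phosphatase gene, by 0.54 ± 0.07. AYR1, an acyl-dihydroxyacetone phosphate reductase gene, rose by 0.62 ± 0.06, but its change was 0.17 with spike-in scaling (adjusted p = 0.32).

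Cardiolipin, the phospholipid typical of mitochondria, is built from CDP-diacylglycerol in a branch of its own, and here 4 of 6 genes rose and 1 fell (median 0.35). TAZ1, the tafazzin gene that remodels cardiolipin, rose by 1.57 ± 0.06 on the log2 scale (2.97-fold). CRD1, the cardiolipin synthase gene, rose by 0.58 ± 0.06 and TAM41, the mitochondrial CDP-diacylglycerol synthase gene, by 0.42 ± 0.05. With spike-in scaling CRD1 was at 0.12 and TAM41 at -0.034, and neither passed. GEP4, the phosphatase gene of the same branch, fell by 0.29 ± 0.08, a call lost when replicate 1 at 90 min or replicate 1 at 0 min was left out (adjusted p = 0.053 and 0.068).

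Among 9 genes of cofactors around Ino2, Ino4 and Opi1, 3 rose, 4 fell and 2 did not pass. SCS22, a relative of the membrane anchor Scs2 that binds Opi1, rose by 0.75 ± 0.06 on the log2 scale. SCS2 itself, named after its values were seen, fell by 0.33 ± 0.06 (adjusted p = 0.00308). YET1 and YET3, endoplasmic reticulum proteins linked to that anchor, rose by 0.57 ± 0.06 and 0.38 ± 0.06. With spike-in scaling the changes of SCS22, YET1 and YET3 were 0.29, 0.12 and -0.068, and none of the 3 passed. YET3 did not pass with no scaling between arrays either (0.19, adjusted p = 0.076). HAC1, the activator gene of the unfolded protein response, fell by 0.52 ± 0.06.

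Of 7 phospholipid breakdown genes, 3 fell, 1 rose and 3 did not pass. PLB2 and PLB1, phospholipase B genes, fell 3.06-fold and 1.91-fold, and PLC1, the gene of the phospholipase C that cleaves a phosphoinositide, rose 3.38-fold (1.76 ± 0.06 on the log2 scale). Among 6 genes that phosphorylate phosphatidylinositol or dephosphorylate its products, 2 rose and 2 fell. FAB1 and VPS34, of vacuolar and endosomal phosphoinositides, rose by 0.77 ± 0.06 and 0.65 ± 0.06, with 0.31 and 0.20 under spike-in scaling, where neither passed. PIK1, a phosphatidylinositol 4-kinase gene, fell by 0.44 ± 0.05.

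**Figure D4:**
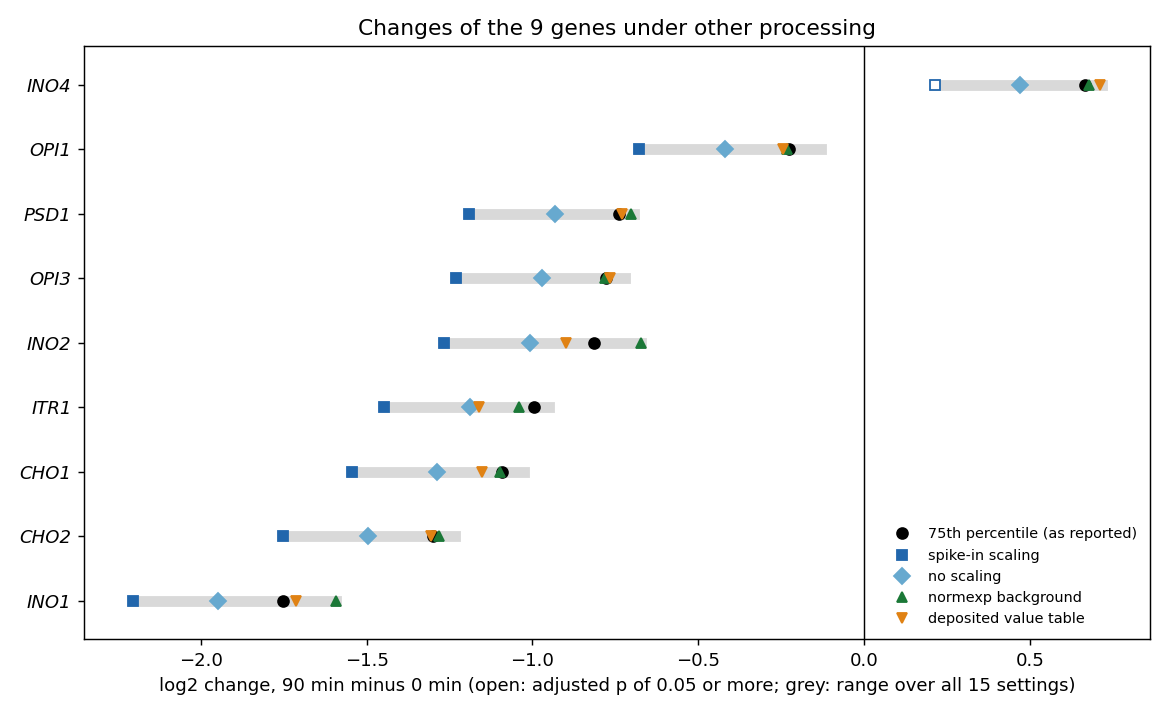
Log2 change of each of the 9 genes, 90 min minus 0 min, under 5 of the settings run, with the range over all 15 settings in grey and open symbols where adjusted p was 0.05 or more. Spike-in scaling moves every gene to the left, and the open square of INO4 shows the call lost there, at 0.21.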

How the data were processed

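The deposited scanner files hold spot intensity in arbitrary units from Agilent Feature Extraction 10.7.3.1, per the file headers, background-subtracted and detrended but not scaled between arrays. The deposited value table holds log2 values. For it, limma is named in the submitters' processing notes, with neither version nor steps.

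From the log2 of the processed signal, the 75th percentile over yeast spots was subtracted array by array. The 2 spots of each probe were then averaged without those marked as outliers, which numbered 3 to 10 per array. Tests covered the 6175 probes with a spot well above background on both arrays of either group. Genes are named through the RefSeq gene table, and a gene with several probes is represented by its brightest. The array design was built on sacCer2, so no positions are given. The comparison used the lmFit and eBayes functions of limma 3.58.1 under R 4.3.3 (two-sided, Benjamini-Hochberg over probes, threshold 0.05), with 2 residual and 4.46 prior degrees of freedom. The test was run on simulated data with independent noise and few changed probes. That run does not cover data in which most genes are called, as here. Figures were drawn with matplotlib 3.10.9.

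The members, lists and named-gene rule were chosen with earlier results of these data known, and 1 further listed gene is not reported here. Besides the 9 genes and MSN2, the rule took from each list up to 3 called genes with the largest change and those opposing its majority. Normexp with an offset of 50 used median spot signal. A planned description of promoter motifs was not run, since no sequences were used here. The number of arrays limits the precision.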

Additional observations from a re-analysis of the deposited data

How the results depend on the processing

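In 14 refits beside the reported one, all 9 genes kept the sign of their change. INO1, ITR1, CHO1, PSD1, CHO2, OPI3 and INO2 passed the threshold in each refit that left no array out. Passing was common, at 76.5% of all genes as reported, and the share of all genes that passed in each such refit was not computed. With spike-in scaling 745 genes rose and 4090 fell, and of the 9 genes 0 rose and 8 fell. Requiring at least 2-fold left 548 genes higher and 238 lower, and of the 9 genes 0 higher and 3 lower. Without single arrays, 1699 to 1785 genes rose and 2484 to 2671 fell, and of the 9 genes 1 rose and 7 to 8 fell. Spike-in scaling turned PSD2 to -0.23, TAM41 to -0.034 and YET3 to -0.068, since it lowers all genes of the 90 min arrays alike. Under it the SE was 0.16 for every gene followed through the refits. The spread of a single gene between replicates therefore does not enter the calls made with spike-in scaling. The median of all genes was -0.13 as reported, -0.32 without scaling and -0.58 under spike-in scaling. The median of the 9 genes minus that of all genes was -0.69 as reported, which scaling by a constant per array cannot change, -0.85 with quantile normalization and -0.76 in the deposited value table. The labels do not say what a replicate number marks. Same-numbered arrays deviated together at r = 0.20 over probes, and with the replicate number as a block 1952 genes rose and 2974 fell, with 1 and 8 of the 9 genes. The fall of INO1 was 1.59 and the rise of MSN2 1.71 after normexp correction, which used median spot signal and an offset of 50. The parts of probe dimness, offset and signal measure in these smaller changes were not tested.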

Other observations

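The 9 genes lie on 7 chromosomes, with INO1 and OPI3 both on chromosome X and ITR1 and INO2 both on chromosome IV. The 18 genes next to them in the RefSeq gene order (assembly R64) went both ways, with 8 higher, 7 lower and 3 not passing. Among all genes tested, 30.3% were higher and 46.2% lower. The log2 changes of these neighbours ran from -1.22 to 2.15, with a median of 0.08. Those ends, chosen after their values were seen, are ZEO1 beside INO4 and AIM17 beside OPI1.

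Marker genes of mating type were read beside these results. MFA1, MFA2, STE2 and BAR1, which mark cells of type a, all fell, with log2 changes of -1.48 to -0.76. Of the markers of the other type, MF(ALPHA)1, MF(ALPHA)2 and STE3, only MF(ALPHA)1 passed the threshold, with a fall of 0.65. The probes of both lists were well above background on all 4 arrays by the scanner software. Those of type a gave 1467 to 9913 units, whereas those of the other type gave only 17.8 to 108 units. Array medians were 2969 to 3697 units. Since levels of different probes cannot be compared, these values do not settle the labelled mating type. Their part in the changes of the phospholipid genes was not tested.

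The paired spots of the 9 genes on 1 array differed by a median of 0.08 log2 (0.00 to 0.21 over 36 pairs). The gaps between replicate arrays of a group were of similar size, at 0.01 to 0.18 at 90 min and 0.01 to 0.19 at 0 min.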
